A study of Mus musculus with 6 samples.

Results

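The paternally methylated imprinted loci of the mouse were examined in a reduced representation bisulfite sequencing study of cultured germline and pluripotent cells. They are the H19-Igf2 domain (chromosome 7, 142570000 to 142670000 in GRCm38), the Dlk1-Meg3 domain (chromosome 12, 109445000 to 109575000) and the Rasgrf1 domain (chromosome 9, 89865000 to 90030000). The domains are set by coordinates, and every position listed there by the authors was kept. This gave 163 of the 448072 positions listed in the whole series, of which 48 lay in the H19-Igf2 domain, 93 in the Dlk1-Meg3 domain and 22 in the Rasgrf1 domain. Within each domain the control region was held apart from the rest. These were the H19 control region (142577000 to 142583000), the intergenic differentially methylated region between Dlk1 and Meg3, or IG-DMR (109526000 to 109529500), and the Rasgrf1 control region (89869000 to 89881000). They held 6, 0 and 1 listed positions.

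All cells were of the OG2 strain, which carries a fluorescent reporter driven by Pou5f1 regulatory sequence. GSC are germline stem cells, which grow in culture like the stem cells that maintain spermatogenesis, and 1 line was used. The iPSC are induced pluripotent cells, in 2 lines, whose cell of origin the labels do not give. The gPSC, also 2 lines, are pluripotent cells of germline origin, and ESC, embryonic stem cells, were 1 line. The labels only number the lines of a kind and do not say how far they are separate in origin. Tests over them therefore measure the spread between these lines only. For GSC and the 4 iPSC and gPSC lines the authors listed the positions whose methylation was above, and those whose methylation was below, that of 1 reference, with the difference in percentage points. The reference is unnamed, and ESC, which has no table of its own, is assumed to be it. A position listed with higher methylation is called hyper below, and one listed with lower methylation hypo. Coverage and methylation levels are not in the tables. The depth of a value is therefore unknown, and a position missing from a table may be unchanged or unmeasured.

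Genomic imprinting makes the expression of a gene depend on the parent it came from. At most imprinted domains the controlling mark is DNA methylation set in the egg, while at a few, including these domains, it is set in the male germline before sperm form. Body cells and embryonic stem cells normally carry the mark on the paternal copy only, and spermatogonia carry the paternal type on both copies. On the unmethylated maternal copy the H19 control region binds the insulator protein CTCF, which keeps shared enhancers from Igf2 and leaves them to H19. The IG-DMR sets the choice between Dlk1 and the maternally expressed Meg3, and methylation upstream of Rasgrf1 goes with expression from the paternal copy.

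The sequences of 2 promoters are shown because they alone, of the RefSeq promoter windows found for these genes, held listed positions. Windows run from 250 bases before to 50 after an annotated start, on GRCm38.p6. Each is printed 5′ to 3′ on the gene's own strand, and capitals mark the CpG that holds a listed position.
Meg3, chr12:109540746-109541045, plus strand: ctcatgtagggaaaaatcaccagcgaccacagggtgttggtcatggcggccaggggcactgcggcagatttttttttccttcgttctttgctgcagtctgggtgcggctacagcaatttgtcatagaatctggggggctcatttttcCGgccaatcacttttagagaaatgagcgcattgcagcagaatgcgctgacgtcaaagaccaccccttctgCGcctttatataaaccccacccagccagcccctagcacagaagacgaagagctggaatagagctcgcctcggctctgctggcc
Igf2, chr7:142658755-142659054, minus strand: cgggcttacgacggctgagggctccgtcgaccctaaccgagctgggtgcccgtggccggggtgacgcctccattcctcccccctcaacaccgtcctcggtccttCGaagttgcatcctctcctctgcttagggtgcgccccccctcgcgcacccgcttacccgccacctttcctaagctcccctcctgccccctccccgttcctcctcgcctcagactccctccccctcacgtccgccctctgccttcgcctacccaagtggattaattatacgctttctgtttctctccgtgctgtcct
The Meg3 window held 13 CpGs, 2 of them listed, at bases 148 and 219 of the printed run for genome positions 109540893 and 109540964. The Igf2 window held 24 CpGs, 1 of them listed, at base 106 for position 142658949. In Meg3 the first of these CpGs lies within CCGG, the site usually cut in this kind of library, and CCGG occurs once in each window. A CCGG was present in 52.8% of the 32851 RefSeq promoter windows of this length, and since the motif reads the same on both strands 1 search covers both. H19 had no entry in the promoter table. The windows of Dlk1 and Rasgrf1, the other 3 of Igf2 and the other 1 of Meg3 held no listed position.

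Across the 3 domains together, GSC had 71 hyper and 7 hypo positions. The iPSC lines had 31 hyper and 4 hypo positions in iPSC 1 and 66 hyper and 31 hypo in iPSC 2. The gPSC lines had 41 hyper and 2 hypo positions in gPSC 1 and 55 hyper and 2 hypo in gPSC 2. Higher methylation than the reference was therefore listed more often than lower in each of the 5 libraries. Of the 163 positions, 43.6% were hyper in GSC, where 47.3% of all listed positions of the series were, so the share lay close to the background. In iPSC 1 it was 31 of 163 against 26.4%, and it was 40.5% against 29.4% in iPSC 2, 25.2% against 30.1% in gPSC 1 and 33.7% against 31.1% in gPSC 2. The hypo share was 4.29% in GSC against 9.78% in the series, 2.45% against 5.64% in iPSC 1, 1.23% against 6.60% in gPSC 1 and 1.23% against 4.57% in gPSC 2. iPSC 2 stood apart with 31 of 163 positions hypo, against 8.18% in the series. When positions 1 bp from a position of the opposite direction were left out, 49 hyper and 14 hypo positions remained in iPSC 2, against 69 and 5 in GSC, 30 and 3 in iPSC 1, 39 and 0 in gPSC 1 and 55 and 2 in gPSC 2. Such neighbours matter because listed positions are single cytosines of either strand. In RefSeq promoter windows 99.9% of 29536 listed positions fell on a CpG, and 87.4% of 14195 opposite neighbours 1 bp apart were the 2 strands of 1 CpG.

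**Figure D1:**
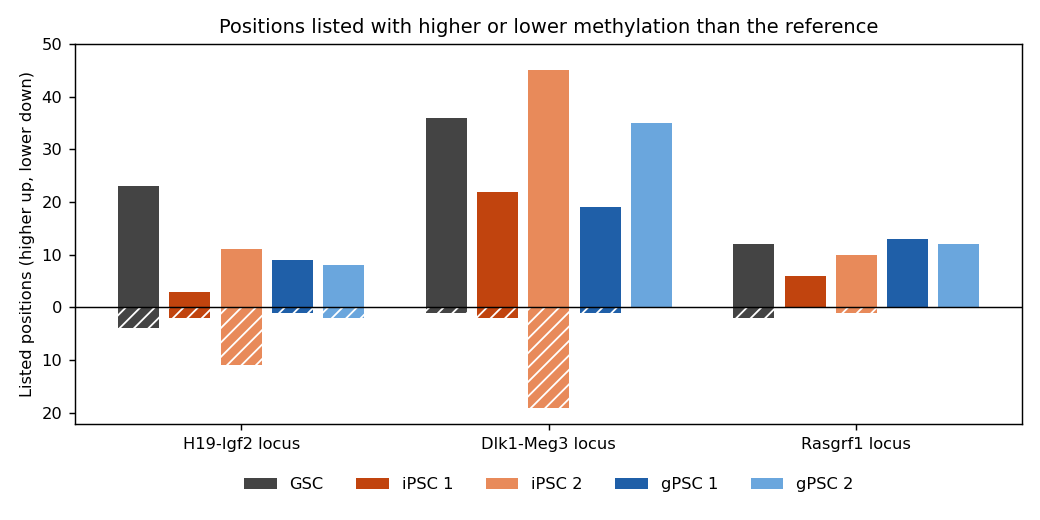
Number of listed positions (vertical axis) in each domain for GSC, iPSC 1, iPSC 2, gPSC 1 and gPSC 2. Solid bars above 0 count positions with higher methylation than the reference and hatched bars below 0 count positions with lower methylation; the Dlk1-Meg3 domain reaches 45 hyper and 19 hypo positions in iPSC 2.

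H19, a maternally expressed long non-coding RNA (gene 14955, chromosome 7, 142575530 to 142578146, minus strand), had higher methylation over its control region in GSC and in part of the pluripotent lines, and no listed position with lower methylation there in any library. Differences limit the levels they come from: a library that is higher by a given number of points must itself be at least at that level in percent, and the reference can be no higher than the remainder to 100%. With 1 shared reference, the largest difference at a position bounds the reference for all libraries. These bounds hold for the measured proportions, leave sampling error out and assume 1 common reference.

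In the stretch 3041 to 3241 bases upstream of the H19 start, which the deposited annotation calls promoter, position 142581187 differed by 97.2 points in GSC (q = 2.09e-10) and by 50 points in gPSC 1 (q = 0.00443). Position 142581387 differed by 97.3 points in GSC (q = 1.34e-13) and by 43.0 points in gPSC 1 (q = 0.00238). At these cytosines the reference was at most at 2.82% and 2.67%, GSC at least at 97.2% and 97.3%, and gPSC 1 between 50% and 52.8% and between 43.0% and 45.7%. The levels of GSC and gPSC 1 there were thus far apart, and both lay above the reference, in reads of 1 library each. A mark on the paternal copy only would give about 50%, which is near the measured proportions of gPSC 1 and far above the reference. A hyper listing here is therefore relative to a reference that itself lay below that level. The q of gPSC 1 are weak for differences of 50 and 43.0 points. Few reads may lie behind them, so the true levels of gPSC 1 are not fixed. Why the reference was low at these cytosines was not tested.

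Position 142581231 was the position of the control region listed in the most libraries. It differed by 58.5 points in GSC, 36.3 points in gPSC 1 and 30.3 points in gPSC 2, with q = 2.11e-15, 1.1e-04 and 0.00545. Its neighbour 142581230, 1 bp away, differed by 37.4 points in GSC only. No position of this stretch was listed in either iPSC line. The iPSC lines differed from each other in the control region: iPSC 1 had no listed position, and iPSC 2 had 142578277 and 142578289, 131 and 143 bases upstream of the H19 start, at 100 points each (q = 0.0017 at both). A difference of 100 points puts the measured proportions at 100% in iPSC 2 and 0% in the reference. The q is weak for such a difference, so few reads lie behind it, and both cytosines can stand on the same reads. Within the H19 gene itself a single position was listed, 142576703, at 100 points in GSC (q = 0.00451) and 100 points in iPSC 2 (q = 3.9e-04).

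**Figure D2:**
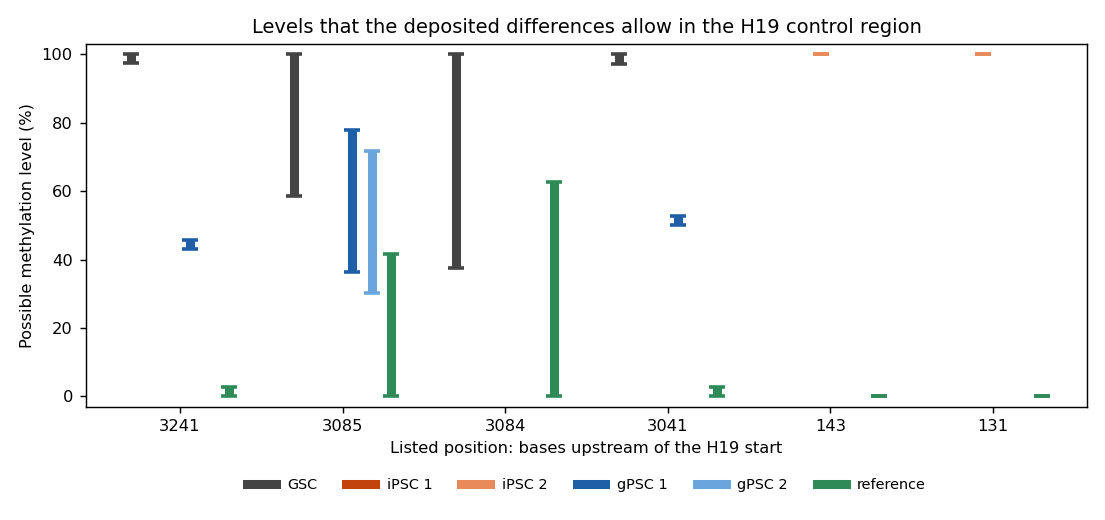
Methylation levels (vertical axis, percent) that the deposited differences allow at the 6 listed positions of the H19 control region, placed by their distance in bases upstream of the H19 start. Vertical bars span the lowest to the highest possible level of GSC, of the iPSC and gPSC lines where listed, and of the reference; at 3041 and 3241 bases GSC lies at or above 97.2%, gPSC 1 between 43.0% and 52.8%, and the reference at or below 2.82%.

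Counted over the H19 control region, iPSC 1 and iPSC 2 had 0 and 2 hyper positions, and gPSC 1 and gPSC 2 had 3 and 1 (means 1 ± 1.41 and 2 ± 1.41, SD, n = 2 lines each). The kinds of line overlapped, with p = 0.667 in a two-sided exact permutation test, where 2 against 2 lines allow no p below 0.33. The direction turned round when only differences of at least 50 points were counted (difference of 0.5 positions in place of −1), and the difference was 0 without iPSC 1 and without gPSC 1.

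In the stretch between H19 and Igf2, hyper positions were listed in GSC at 142599999 (100 points), 142611526 (94.4 points) and 142611604 (52.0 points), and at 142630758, 142630783 and 142630803 (100 points each). Of the lines, gPSC 1 alone had a position there, 142599999, at 69.2 points. The q in GSC was 0.00105 at 142630758 and 3.24e-04 at both 142630783 and 142630803. These q are weak for differences of 100 points, so few reads lie behind them, and these close cytosines can stand on the same reads.

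Igf2, the growth factor that is expressed from the paternal copy (gene 16002, chromosome 7, 142650768 to 142666816, minus strand), held positions of both directions. Near its 3′ end, 142652084 was hyper in every library, at 94.7 points in GSC, 68.2 points in iPSC 1, 68.2 points in iPSC 2, 78.5 points in gPSC 1 and 73.5 points in gPSC 2. The reference was at most at 5.29% there, so that the iPSC lines lay between 68.2% and 73.5%, gPSC 1 between 78.5% and 83.8%, gPSC 2 between 73.5% and 78.8%, and GSC at 94.7% or above. The q of these differences ranged from 1.23e-28 in GSC to 1.11e-12 in iPSC 1. All 4 pluripotent lines were therefore below GSC at this cytosine and above the reference. The next position, 142652117, was hyper by 44.9 points in GSC, 26.7 points in iPSC 2, 40.5 points in gPSC 1 and 34.0 points in gPSC 2.

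In the middle of Igf2, 142658949 in the printed promoter differed by 100 points in GSC alone (q = 0.00335). The pair 142659375 and 142659376 went in opposite directions: 47.9 and −58.8 points in GSC, 47.4 and −57.1 points in iPSC 2, and 54.0 and −59.8 points in gPSC 1. In iPSC 1 and gPSC 2 only the second cytosine was listed, at −68.1 points in each. It was the one hypo position shared by all 5 libraries in the 3 domains, and its neighbour of opposite direction was listed in GSC, iPSC 2 and gPSC 1.

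A run of hypo positions in the first part of Igf2 was listed in iPSC 2 alone. It comprised 9 positions between 142664194 and 142664274, 8 of them at −55.0 points with the same p of 0.000679, and the ninth at −53.3 points. Neither iPSC 1 nor GSC nor gPSC 1 had a listed position there, and gPSC 2 had 1 hypo position nearby, 142664313, at −73.9 points. Neighbouring cytosines can stand on the same reads, and their number was not tested. Next to that gPSC 2 position, 142664314 was hyper by 42.7 points in iPSC 2. GSC had hypo positions elsewhere in Igf2, 142660315, 142660318 and 142660320, at −69.2 points each (q = 0.0067 at each), which no line shared. It also had 3 hyper positions between 142664987 and 142665182, at 55.7, 71.8 and 63.7 points, which no line shared either. Upstream of Igf2, 142669709 in the overlapping antisense gene Igf2os was hyper by 74.3 points in iPSC 2, 81.2 points in gPSC 1 and 54.5 points in gPSC 2.

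Over the whole domain outside the control region, hyper and hypo positions numbered 19 and 4 in GSC, 3 and 2 in iPSC 1, 9 and 11 in iPSC 2, 6 and 1 in gPSC 1 and 7 and 2 in gPSC 2. The mean hyper count was 6 ± 4.24 for the iPSC lines and 6.5 ± 0.707 for the gPSC lines (SD, n = 2 each), a difference within the spread of the iPSC lines (two-sided exact permutation test, p = 1). Without iPSC 1 the difference turned round, to 2.5 positions, and without gPSC 2 it was 0.

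**Figure D3:**
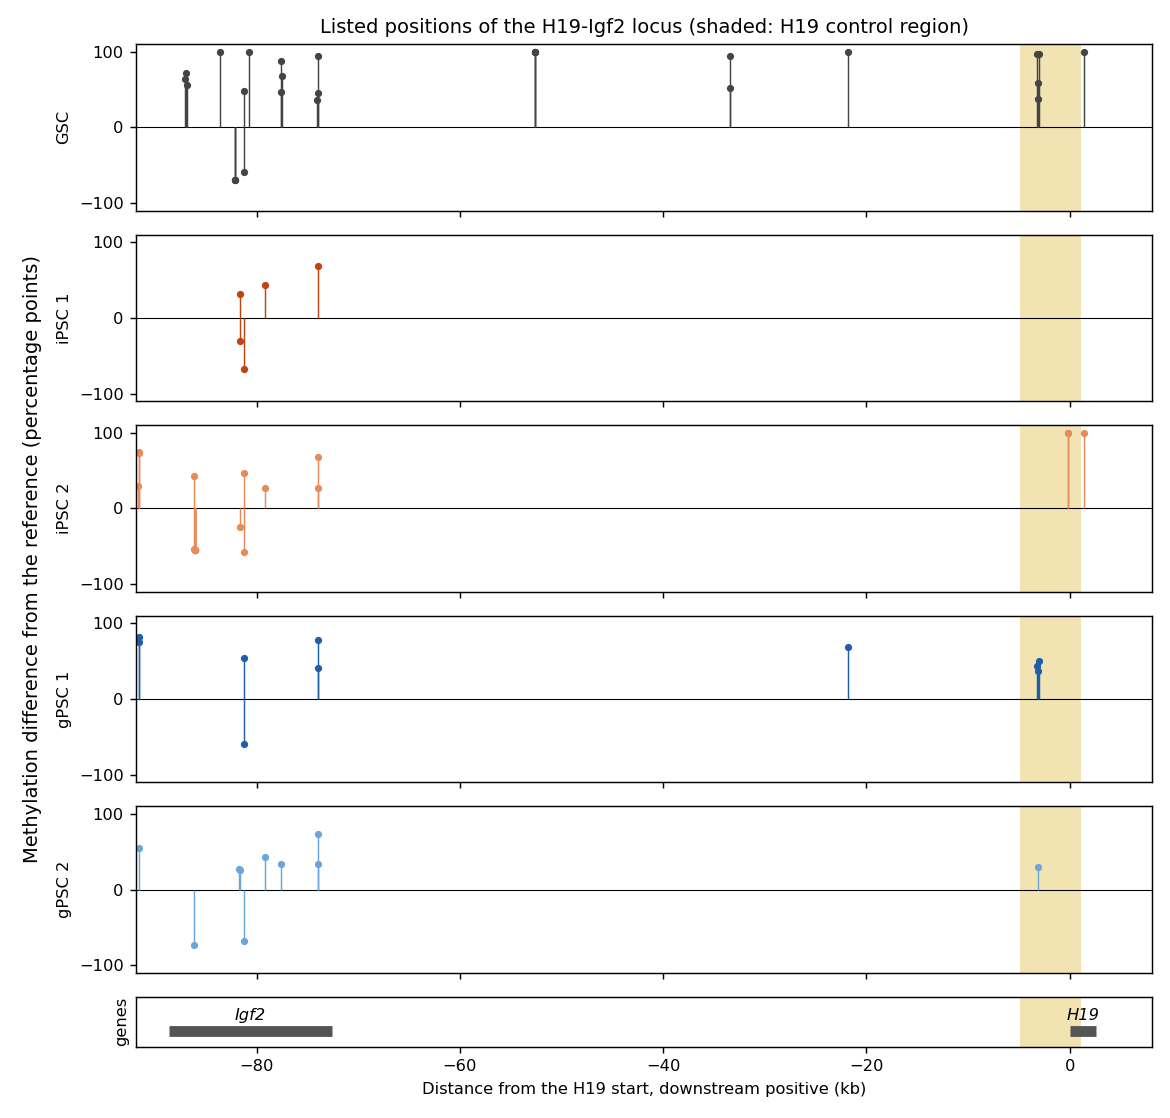
Difference from the reference in percentage points (vertical axis) of each listed position of the H19-Igf2 domain, by distance from the H19 start in kb (horizontal axis), with 1 panel for each of GSC, iPSC 1, iPSC 2, gPSC 1 and gPSC 2 and the genes below. The shaded control region holds points in GSC, iPSC 2, gPSC 1 and gPSC 2 and none in iPSC 1, and the hypo run of iPSC 2 stands in Igf2.

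Dlk1 encodes a transmembrane protein related to Notch ligands and is expressed from the paternal copy (gene 13386, chromosome 12, 109452485 to 109463336, plus strand). Meg3 is a long non-coding RNA expressed from the maternal copy (gene 17263, 109540996 to 109571729, plus strand). The domain had 36 hyper and 1 hypo positions in GSC, 22 and 2 in iPSC 1, 45 and 19 in iPSC 2, 19 and 1 in gPSC 1 and 35 and 0 in gPSC 2. None of the 93 lay in the IG-DMR, which therefore gives no information on its methylation in these tables. The nearest listed cytosine, 109525712, lies just before it and 15.3 kb before the Meg3 start. That cytosine was hyper by 100 points in GSC (q = 0.00209) and by 100 points in gPSC 1 (q = 0.00171). The measured proportions were thus 100% in both and 0% in the reference. These q are weak for such differences, so few reads lie behind the proportions and the true levels are not fixed.

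In 2 stretches upstream of Dlk1 all listed positions were hyper, and each of the 5 libraries had some. In the first, 109446143 to 109446258, 6.2 to 6.3 kb before the Dlk1 start, the mean difference was 67.3 points over 6 positions in GSC. It was 58.3 points over 3 positions in iPSC 1 and 54.6 points over 5 in iPSC 2, against 42.1 points over 4 in gPSC 1 and 56.4 points over 5 in gPSC 2. In the second stretch, 109448505 to 109448648, it was 77.9 points over 4 positions in GSC, 59.1 and 63.1 points over 4 positions each in iPSC 1 and iPSC 2, and 69.9 points over 2 positions in gPSC 1 and 62.8 points over 4 in gPSC 2. The iPSC mean of the first stretch was 56.4 ± 2.57 points and the gPSC mean 49.2 ± 10.1 points (SD, n = 2 lines each). For the second stretch they were 61.1 ± 2.77 and 66.4 ± 5.03 points. In both stretches the iPSC and gPSC lines overlapped. These means run over the positions listed in each library, which are not the same set. Nearer to the gene, 2.6 kb before its start, 109449906 was hypo by −53.2 points in iPSC 2 alone (q = 0.0094). The other positions of that stretch were hyper, 109450527 by 46.3 points in GSC and 34.7 points in iPSC 2, and 109450236 and 109450391 by 27.9 and 29.8 points in gPSC 2, while iPSC 1 and gPSC 1 had none.

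Within Dlk1, 0.9 to 1.0 kb after its start, iPSC 2 had 17 hyper and 17 hypo positions between 109453396 and 109453522, of which 32 lay 1 bp from a position of the opposite direction. The domain held 19 such opposite pairs of neighbours in iPSC 2, and in 18 of them the 2 differences summed to within 5 points of 0. Some of these pairs shared a cytosine, so not all can be the 2 strands of 1 CpG. In 16 of the 19 the lower coordinate was the hypo one. GSC and gPSC 1 had 1 pair each, at 109453396 and 109453397, with −32.3 and 39.2 points in GSC and −40.3 and 44.9 points in gPSC 1, while iPSC 1 had only 109453396, at −49.5 points, and gPSC 2 none of these. The mean over the 34 positions of iPSC 2 was 0.323 points. Without positions 1 bp from an opposite one, the domain had 29 hyper and 3 hypo positions in iPSC 2.

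Farther down in Dlk1, 7.3 to 7.5 kb after the start, GSC had 11 hyper positions with a mean of 45.8 points. The lines had few there: iPSC 1 had 2 with a mean of 37.4 points, iPSC 2 had 1 at 39.6 points, gPSC 1 had 1 at 31.0 points and gPSC 2 had 3 with a mean of 34.1 points. Position 109460019 showed the largest of these differences, 87.3 points in GSC, against 39.6 points in iPSC 2 and 39.2 points in gPSC 2.

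Between the genes, 109497030 was hyper in every library, at 80.4 points in GSC, 54.3 points in iPSC 1, 69.9 points in iPSC 2, 70.0 points in gPSC 1 and 51.3 points in gPSC 2. With the reference at most at 19.6%, GSC was at 80.4% or above, and iPSC 1 and gPSC 2 between 54.3% and 74.0% and between 51.3% and 70.9%. The position lies in Gm34081, which RefSeq annotates as a long non-coding RNA. In that gene, 109499718 to 109499811 held 3 hyper positions in GSC with a mean of 69.3 points, 2 in iPSC 2 with 44.0 points and 2 in gPSC 1 with 45.5 points. There iPSC 1 had 1 hypo position, at −35.1 points, and gPSC 2 had none. From 109500390 to 109500544 the mean was 78.9 points over 2 positions in GSC, 47.3 points over 3 in iPSC 1, 43.6 points over 4 in iPSC 2 and 35.6 points over 5 in gPSC 2. In both stretches GSC had the highest mean of the libraries with listed positions, but these means run over different sets of positions. At the shared cytosine 109500544 GSC had 70.4 points, against 58.3 in iPSC 1, 67.3 in iPSC 2 and 55.9 in gPSC 2. At 109500390 it had 87.4 points, against 53.7 in iPSC 1 and 43.5 in iPSC 2. GSC was also highest at 109499718 and 109499767, which it shared with iPSC 2 and gPSC 1. Elsewhere between Dlk1 and Meg3, 109471793 and 109472728 were hyper in iPSC 1, iPSC 2 and gPSC 2 and unlisted in GSC and gPSC 1. They differed by 40.9 and 64.8 points in iPSC 1, 44.1 and 47.9 points in iPSC 2, and 45.7 and 63.1 points in gPSC 2.

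The Meg3 start was hyper in the pluripotent lines and held no listed position in GSC. Position 109540893, base 148 of the printed promoter, was hyper by 37.2 points in iPSC 1, 69.9 points in gPSC 1 and 26.0 points in gPSC 2, with q = 3.42e-06, 2.91e-25 and 1.19e-04. The reference there was at most at 30.1%, and gPSC 1 at 69.9% or above. Position 109540964, base 219, was hyper by 100 points in iPSC 1 alone (q = 7.46e-04). In an exon, 75 bases after the start, 109541071 was hyper by 33.5 points in iPSC 1, 41.5 points in iPSC 2 and 60.5 points in gPSC 2, with q = 1.16e-11, 4.96e-19 and 1.28e-24. Each of the 4 lines thus had at least 1 hyper position around the Meg3 start, though not at the same cytosines. An unlisted GSC position can be one that was not covered, so GSC cannot be ranked against the lines here.

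Inside Meg3, 109549676 and 109549827, 8.7 and 8.8 kb after the start, were hyper in all 5 libraries, whereas 109549823 between them was hypo in iPSC 2. Position 109549676 differed by 68.9 points in GSC, 65.4 points in iPSC 1, 63.7 points in iPSC 2, 76.6 points in gPSC 1 and 73.4 points in gPSC 2. Position 109549827 differed by 87.5 points in GSC, iPSC 2 and gPSC 2, by 73.2 points in iPSC 1 and by 66.8 points in gPSC 1. The reference was at most at 12.5% at the second position, so GSC, iPSC 2 and gPSC 2 were at 87.5% or above. At 109549823 the difference in iPSC 2 was −25.5 points (q = 1.19e-04), and no other library had that position listed. Of the 3 remaining positions of this stretch, all hyper, GSC had 3, iPSC 2 had 1 and gPSC 2 had 2. At 109546074, 5.1 kb after the start, the difference was 76.3 points in GSC, 52.1 points in iPSC 2, 60.6 points in gPSC 1 and 45.8 points in gPSC 2.

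The mean number of hyper positions outside the IG-DMR was 33.5 ± 16.3 for the iPSC lines and 27 ± 11.3 for the gPSC lines (SD, n = 2 each), with overlapping lines and a two-sided exact permutation p = 0.667. The sign rested on iPSC 2. Without that line the difference was −5 positions in place of 6.5, without gPSC 1 it was −1.5, and without the positions 1 bp from an opposite one it was −1.

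**Figure D4:**
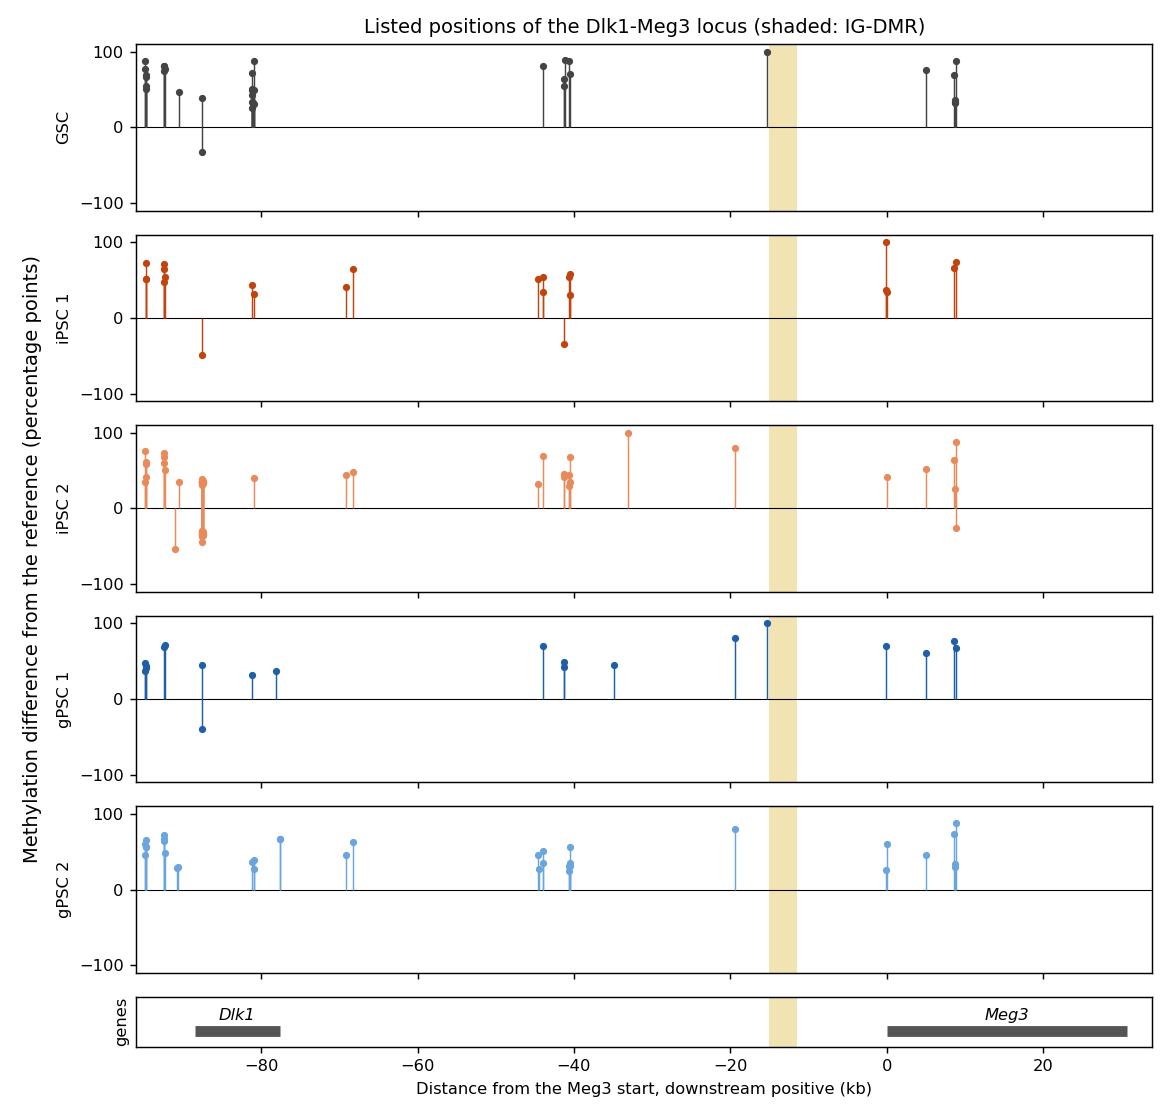
Difference from the reference in percentage points (vertical axis) of each listed position of the Dlk1-Meg3 domain, by distance from the Meg3 start in kb (horizontal axis), for GSC, iPSC 1, iPSC 2, gPSC 1 and gPSC 2 from top to bottom. The shaded IG-DMR is empty in every panel, and iPSC 2 shows the mirrored points of 17 hyper and 17 hypo positions inside Dlk1.

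Rasgrf1, a guanine nucleotide exchange factor that activates RAS and is expressed from the paternal copy in brain (gene 19417, chromosome 9, 89909508 to 90026979, plus strand), was hyper upstream and within its body in all 5 libraries. The control region held 1 listed position, 89878277, 31.2 kb before the Rasgrf1 start, hyper by 57.1 points in gPSC 1 (q = 0.00752). The other 4 libraries had none there, and the counts of 0 and 0 in iPSC against 1 and 0 in gPSC gave an exact permutation p = 1.

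Just outside that region, 23.4 to 23.7 kb before the start, all 7 listed positions were hyper wherever they were listed. GSC and gPSC 2 had all 7, with means of 49.1 and 48.6 points, gPSC 1 had 5 with 54.4 points, iPSC 2 had 5 with 42.2 points and iPSC 1 had 3 with 48.7 points. The line means were 45.4 ± 4.63 points in iPSC and 51.5 ± 4.12 points in gPSC (SD, n = 2 lines each) and overlapped. Position 89885782 was the one listed in every library there, at 75.4 points in GSC, 58.7 points in iPSC 1, 52.1 points in iPSC 2, 89.9 points in gPSC 1 and 76.9 points in gPSC 2. The reference was at most at 10.1% there, so that gPSC 1 was at 89.9% or above, and iPSC 1 and iPSC 2 between 58.7% and 68.8% and between 52.1% and 62.2%. Both iPSC lines were below both gPSC lines and GSC at this cytosine.

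In the gene body, 89969432 in an intron, 59.9 kb after the start, was again listed everywhere, at 50.8 points in GSC, 54.8 points in iPSC 1, 51.8 points in iPSC 2, 54.6 points in gPSC 1 and 51.2 points in gPSC 2. These values differed little between libraries, and the reference there was at most at 45.2%. Position 89958105 was hyper by 64.3 points in each of GSC, iPSC 2 and gPSC 1. Equal differences of this kind leave the level of the libraries open between 64.3% and 100%, with the reference anywhere from 0% to 35.7%.  Lower methylation was listed at 3 positions: 89909325, 183 bases before the start, at −29.9 points in GSC; 89984187, at −100 points in GSC; and 89969235, at −41.0 points in iPSC 2, where GSC had 30.4 points.

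Outside the control region iPSC 1 and iPSC 2 had 6 and 10 hyper positions, and both gPSC lines had 12 (means 8 ± 2.83 and 12 ± 0, SD, n = 2 lines each). Each iPSC line was below each gPSC line, a difference of −4 positions with a two-sided exact permutation p of 0.33, the smallest possible. Over the whole series the lines stood in the same order, with 26.4% and 29.4% of all listed positions hyper in iPSC 1 and iPSC 2, against 30.1% and 31.1% in gPSC 1 and gPSC 2, so the order is not particular to Rasgrf1. Over the 6 comparisons of counts that gave a value, the Benjamini-Hochberg adjusted p was 1 for each. For the mean difference in the 3 control regions no comparison could be made, because at least 1 line had no listed position in each.

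**Figure D5:**
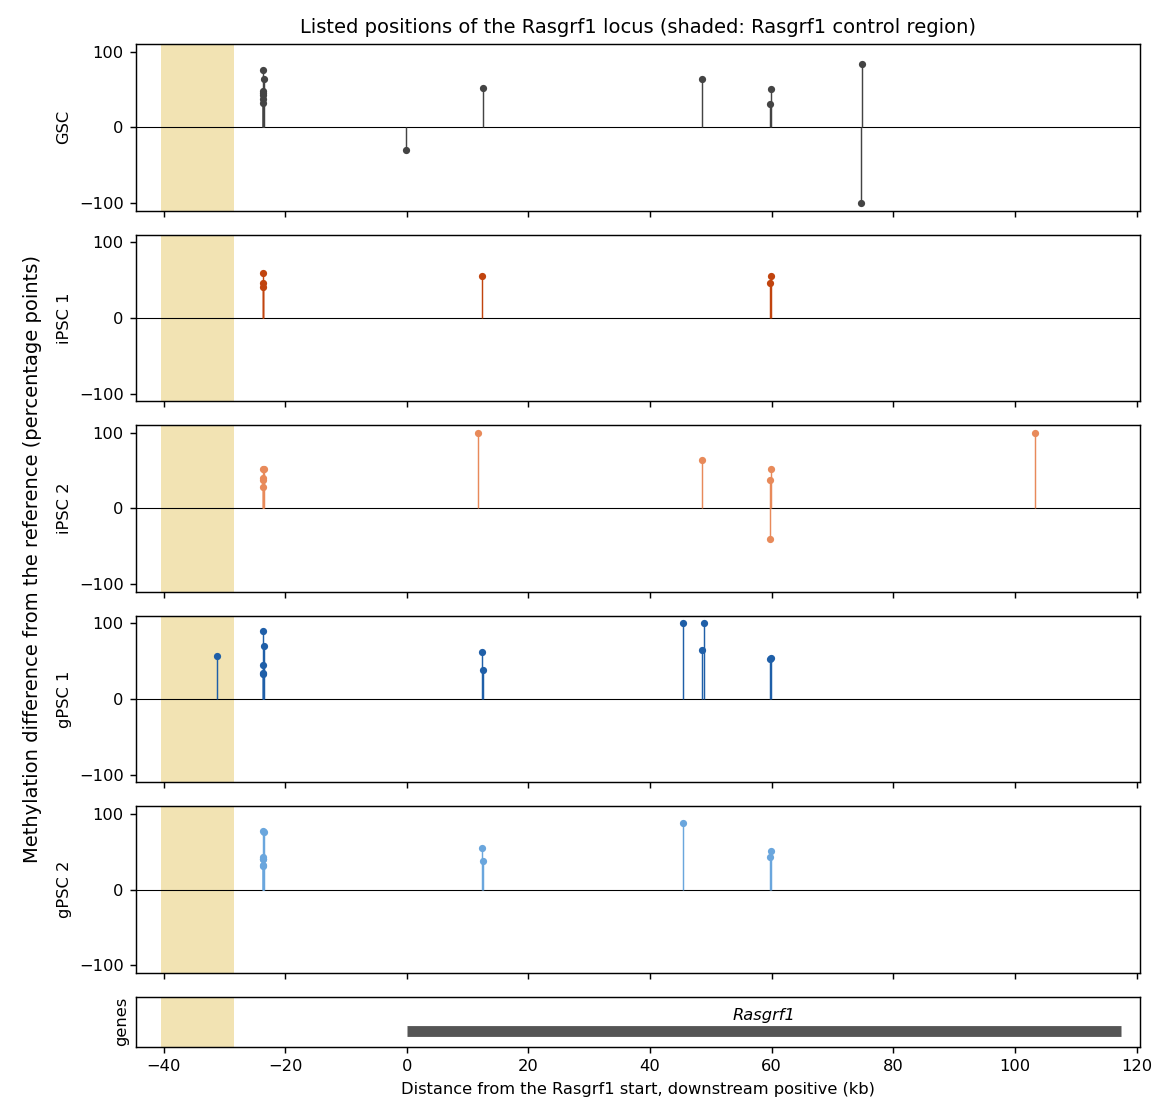
Difference from the reference in percentage points (vertical axis) of each listed position of the Rasgrf1 domain, by distance from the Rasgrf1 start in kb (horizontal axis), with a panel each for GSC, iPSC 1, iPSC 2, gPSC 1 and gPSC 2. The shaded control region holds 1 point, in gPSC 1, and the stretch 23.4 to 23.7 kb before the start is hyper in every panel.

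Of the 163 positions, 11 were listed in all 5 libraries and 99 in 1 library only. Of the 11, 7 lay in the Dlk1-Meg3 domain and 2 in each of the other domains, and all but 142659376 in Igf2 were hyper in every library. Their median difference was 74.2 points in GSC, 54.8 points in iPSC 1, 60.3 points in iPSC 2, 69.2 points in gPSC 1 and 64.7 points in gPSC 2. All these tables share the reference library, so listing in all of them is not independent repetition. The reference was bounded at or below 10% at 20 of the 163 positions, 13 of them in the H19-Igf2 domain, 3 in the Dlk1-Meg3 domain and 4 in the Rasgrf1 domain.

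Where a position was listed in GSC and in a line, the reference drops out of the difference between them. At 21 such positions GSC minus iPSC 1 had a median of 15.7 points, where the 78103 such positions of the series had 8.62 points. The median was 10.6 points over 34 positions for iPSC 2, against 7.25 points in the series. For gPSC 1 it was 9.52 points over 32 positions, against 5.74 points, and for gPSC 2 it was 9.54 points over 33 positions, against 7.41 points. Single positions spread widely, from −6.0 to 33.7 points for iPSC 1 and from −14.5 to 54.3 points for gPSC 1. By domain, the median GSC minus line difference was 17.2, 11.5, 13.7 and 14.3 points for iPSC 1, iPSC 2, gPSC 1 and gPSC 2 in the Dlk1-Meg3 domain. In the H19-Igf2 domain it was 17.9, 0.57, 19.2 and 21.2 points over 2, 5, 8 and 5 positions, which are not the same set for each line. The low iPSC 2 value rests on 142576703 and the opposite pair 142659375 and 142659376, where GSC and iPSC 2 differed little. At 142652084 both iPSC lines stood at 68.2 points, against 94.7 points in GSC. In the Rasgrf1 domain it was −1.0, 7.49, 0.12 and 1.97 points over 4, 8, 8 and 9 positions. Positions listed in both libraries are those where both differ from the reference by at least 25 points, and these medians describe them only.

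Taken per gene with 2000 bp at each end, a gene was called hyper or hypo in a library when at least 3 positions were listed and at least 80% had that direction. Meg3 was called hyper in all 5 libraries, Rasgrf1 in the 4 lines, Dlk1 in GSC and gPSC 2, H19 in iPSC 2 and Igf2 in none, and no member was called hypo. Thus 2, 2, 3, 2 and 3 of the 5 genes were hyper in GSC, iPSC 1, iPSC 2, gPSC 1 and gPSC 2. Among the 20192 genes that had at least 3 listed positions over the tables, 46.5%, 30.7%, 30.6%, 34.0% and 40.6% were hyper and 3.28%, 2.09%, 2.66%, 1.74% and 1.48% hypo, in the same order. With 5 genes, these counts do not stand apart from the background. For H19 the added 2000 bp do not reach the stretch 142581187 to 142581387 of its control region. That stretch held 4, 3 and 1 hyper positions in GSC, gPSC 1 and gPSC 2, so the H19 calls leave it out. The H19 call in iPSC 2 rested on 3 positions. Among them were 142578277 and 142578289, where few reads lie behind the differences.

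Genes that protect or read imprints were counted the same way, from a list of 15 of which 13 had 3 or more positions. In the order GSC, iPSC 1, iPSC 2, gPSC 1 and gPSC 2, 4, 4, 5, 4 and 5 were hyper and none hypo. Of all genes with enough positions 46.5%, 30.7%, 30.6%, 34.0% and 40.6% were hyper, and these counts do not stand apart from that. The median excess of hyper over hypo positions in the list was 3, 2, 3, 2 and 3, against 3, 1, 2, 2 and 2 over all genes. Ctcfl, the germline relative of CTCF, was hyper throughout, with 10, 7, 10, 13 and 13 hyper positions and no hypo position. Ctcf had 9 hyper and 6 hypo positions in GSC and 4, 3, 6 and 5 hyper positions in the lines. Dnmt3a, a methyltransferase that sets imprints in the male germline, had 21 hyper and 4 hypo positions in GSC and 5, 11, 9 and 9 hyper positions in the lines, with 6 hypo positions in iPSC 2 alone. Dnmt3l, its cofactor, had 6 hyper positions in GSC, 2 in iPSC 1, none in iPSC 2, 2 in gPSC 1 and 3 in gPSC 2. Some other members were mixed. Arid4a had 9 hyper and 8 hypo positions in GSC, 16 and 17 in iPSC 1 and 14 and 16 in iPSC 2. Dnmt3b had 5 hyper positions and no hypo position in GSC, against 8 hyper and 10 hypo in iPSC 2.

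The insulin-like growth factor genes, the pathway of Igf2, comprised 11 listed genes, 10 with 3 or more positions. Of these 6, 3, 5, 5 and 4 were hyper in GSC, iPSC 1, iPSC 2, gPSC 1 and gPSC 2 and none was hypo, where 46.5%, 30.7%, 30.6%, 34.0% and 40.6% of all genes with enough positions were hyper. The median excess of hyper over hypo positions was 7, 2, 4.5, 3.5 and 3.5, against 3, 1, 2, 2 and 2 over those genes. Igf1r, the receptor through which Igf2 signals, had 41 hyper and 10 hypo positions in GSC, 21 and 10 in iPSC 1, 18 and 1 in iPSC 2, 25 and 3 in gPSC 1 and 48 and 8 in gPSC 2. Igf2r, which clears Igf2 and is itself imprinted, had 12 hyper and 4 hypo positions in GSC and 1 to 3 hyper positions in each line. Igfbp5, a binding protein, was hyper in all 5, with 7, 17, 13, 11 and 16 hyper positions.

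Of 5 pluripotency markers with enough positions, 3 were hyper in GSC, where 46.5% of all such genes were. In iPSC 1, iPSC 2, gPSC 1 and gPSC 2, 0, 1, 2 and 0 were, against 30.7%, 30.6%, 34.0% and 40.6% of genes, and Tdgf1 was hypo in iPSC 2, with 5 hypo positions. Pou5f1 had 77 hyper and 1 hypo positions in GSC, against 12 to 25 hyper and 3 to 9 hypo positions in the lines, and the reporter of the strain carries regulatory sequence of this gene, whose part in the count was not tested. Zfp42 had 18 hyper positions in GSC and 1 to 7 in the lines, Gdf3 had 13 in GSC, 4 with 4 hypo in gPSC 1 and none in the other lines, and Nanog had no listed position. Of 8 markers of germline stem cells, 4 were hyper in GSC, and 6, 3, 4 and 5 in iPSC 1, iPSC 2, gPSC 1 and gPSC 2, beside the same shares of all genes. Ddx4 was called hypo in gPSC 2, with 6 hypo positions and 1 hyper position.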

How the data were processed

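Reduced representation bisulfite sequencing was done on 6 mouse lines (GSC 1, iPSC 2, gPSC 2 and ESC 1), and 10 tables of 5 libraries were used. The submitters' processing notes list methylKit, Bismark, Bowtie2 and GATK, with GRCm38 and mm10 as builds, and give neither roles nor versions. The authors deposited for each position a p-value, a q-value and a difference in percentage points. In all 10 tables q does not pass 0.01 and no difference is smaller than 25 points in size, so only called positions are listed. How strands were handled, and the least coverage accepted, is not given in the sources used here.

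Positions were selected by coordinates and counted with Python 3.11.15 and pandas 2.3.3, and checked on simulated positions. Gene ends and promoter sequences came from RefSeq tables of GRCm38.p6. The strand of H19, which has no promoter entry, came from textbook knowledge. Positions at most 500 bp apart were described as 1 stretch. iPSC and gPSC lines were compared by two-sided exact permutation tests, and GSC, with 1 library, was not tested. Mean ± SD run over 2 lines, which share the reference library, so the SD is not independent evidence. The authors' q compares 1 library with 1 other and has no replicate check. The rule named the 5 genes, other genes of the domains with listed positions, and in the control regions the positions listed most often and each library's largest difference. Other single positions were chosen after their values were seen. Tests of the mean difference in the 3 control regions were planned and gave no value. Alternatives were stricter thresholds, other region edges, removal of opposite neighbours, a replicate block and each line left out. The domains, their members and the 8 gene lists were chosen with earlier results of these data known.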

Additional observations from a re-analysis of the deposited data

How the results depend on the processing

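Of 60 alternatives to the 5 iPSC minus gPSC differences other than 0, 49 kept the sign, 5 gave 0 and 6 turned it, which says little where the smallest p is 0.33. The difference of 0 in the IG-DMR stayed 0 in 11 of 12, and the GSC counts in the control regions were identical in 17 of 21, with 3 to 5 positions in place of 4 for H19. The Rasgrf1 control region gave 0 in place of −0.5 at q of at most 0.001 and without gPSC 1, H19 gave 0 without iPSC 1 or gPSC 1, and the rest of H19-Igf2 gave 0 without gPSC 2. The iPSC minus gPSC count in the H19 control region, −1, became 0.5 with differences of at least 50 points. That of the Dlk1-Meg3 domain, 6.5, became −1 without positions 1 bp from an opposite one and −2 without those within 50 bp, since most positions so removed were those of iPSC 2 inside Dlk1. Leaving out 1 line at a time gave −5 (without iPSC 2) to 18 there, with −1.5 without gPSC 1. It gave −3.5 to 2.5 for the H19-Igf2 domain, where the difference reversed without iPSC 1. It gave −2 to 0 for the H19 control region, −1 to 0 for the Rasgrf1 control region, −6 to −2 for the rest of the Rasgrf1 domain and 0 for the IG-DMR. Widening the control regions by 500 bp gave GSC 1 hyper position in the IG-DMR in place of 0.

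With the line number as a replicate block, the differences were the same, at −1, 0, −0.5, −0.5, 6.5 and −4 positions, and the smallest p possible was 0.5. The numbers name lines and pair nothing by the labels: over 38872 positions listed in all 4 lines, the differences between line 1 and line 2 of the 2 kinds correlated at 0.116. The mean differences in the 3 control regions had no value under the settings tried, since a line lacked positions. Depth is not given, so an unlisted position cannot be read as unchanged.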

Other observations

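Of 6 further genes of the Dlk1-Meg3 cluster, 5 had 3 or more listed positions, and 3, 1, 3, 2 and 3 of them were hyper in GSC, iPSC 1, iPSC 2, gPSC 1 and gPSC 2, with none hypo. Of all genes with enough positions 46.5%, 30.7%, 30.6%, 34.0% and 40.6% were hyper in those libraries, which holds for the other lists here as well. Rtl1, a retrotransposon-derived gene expressed from the paternal copy, was hyper in all 5, with 14, 12, 16, 11 and 12 hyper positions and 1 hypo position, in gPSC 1. Its annotated span overlaps the end of Meg3, where no position was listed. Rian, a maternally expressed non-coding RNA, had 12 hyper positions in GSC, 6 with 3 hypo in iPSC 1, 7 in iPSC 2, 5 with 1 hypo in gPSC 1 and 7 with 5 hypo in gPSC 2. Dio3, which inactivates thyroid hormone, had 9 hyper and 3 hypo positions in GSC and no excess of hyper positions in any line, with 0 and 1, 0 and 2, 2 and 2, and 1 and 1 hyper and hypo positions in iPSC 1, iPSC 2, gPSC 1 and gPSC 2.

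Zdbf2, at a further paternally methylated germline region, had 15 hyper and 2 hypo positions in GSC, 13 and 11 in iPSC 1, 4 and 3 in iPSC 2, 3 and 2 in gPSC 1 and 3 and 1 in gPSC 2. Its neighbour Gpr1 had 3 hyper positions in GSC and 1 in iPSC 2. Both were called hyper in GSC and in no line, where 46.5% of all genes were hyper in GSC. Of 5 RAS exchange factors with enough positions, 3, 3, 2, 2 and 2 were hyper in GSC, iPSC 1, iPSC 2, gPSC 1 and gPSC 2, and Rasgrf2, the relative of Rasgrf1, was hyper in each, with 8, 6, 6, 3 and 6 hyper positions. Sos1 was called hypo in iPSC 2, with 7 hypo positions and 1 hyper position.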
